A study of Homo sapiens with 6 samples.

Results

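The 10 genes described here encode transcription factors and chromatin regulators known to drive epithelial-mesenchymal transition (EMT): SNAI1, SNAI2, TWIST1, TWIST2, ZEB1, ZEB2, PRRX1, TCF3, TCF4 and HMGA2. They were chosen by name, and every probe set whose gene entry in the platform annotation includes one of them was used, which gave 48 of 54613 probe sets. All 48 name a single gene. The data are 6 Affymetrix arrays of MDA-MB-436, a human breast cancer line, long established in culture and of mesenchymal character. In 3 arrays the RNA came from wild type cells, and in 3 from cells labelled NF1-C2S transfected, which per the series record were stably transfected with a plasmid that expresses NF1-C2, a nuclear factor I-C protein, that is, a transcription factor of the NFI family (the sample characteristics write overexpressing NF-C2). All cells were of the same line and were grown in the same serum- and insulin-containing medium. No cells with an empty plasmid are among the samples, and the sources used here do not say whether the transfected cells were 1 clone or a pool. The comparison asks which of these factors differ in mRNA level between cells with and without the plasmid.

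In EMT, epithelial cells lose cell-cell junctions and gain the cytoskeleton, matrix and motility of mesenchyme. SNAI1 and SNAI2 (Snail and Slug) and ZEB1 and ZEB2 are zinc finger repressors that bind E-box sequences in epithelial genes, E-cadherin among them. TWIST1 and TWIST2 are basic helix-loop-helix (bHLH) factors that pair with the E proteins TCF3 (E2A) and TCF4 (E2-2), and ID proteins block such pairs. PRRX1 is a homeobox factor of embryonic mesenchyme, and HMGA2 is an architectural chromatin protein, silenced in most adult tissues by the let-7 miRNAs, that is known to raise SNAI1 and TWIST1 expression. In triple-negative breast lines such as this one, several of these factors are known to be present without any added stimulus.

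Values are on the log2 scale of the deposited table, as made by RMA, so a difference of 1 is a 2-fold difference. The median over all probe sets, 4.82, is used below as a mark of dimness, since levels under it lie near background, where RMA compresses differences. A probe set is said to have risen or fallen on the arrays labelled transfected when its limma p, corrected across the 54613 probe sets (Benjamini-Hochberg), was under 0.05. The labels do not call the replicates separate cultures, so a p here weighs a difference against the spread between these arrays, which may be technical. In bulk RNA, fewer cells with a transcript and less of it per cell cannot be told apart. NFIC, the gene of the transfected factor, was no higher with the plasmid (brightest probe set 226895_at, 8.47 ± 0.06 in wild type and 8.25 ± 0.04 in transfected, adjusted p = 0.082), so it gives no check of the labels, on which each direction below rests. Of the labelled epithelial identity, the keratin KRT18 was bright in wild type (12.55 ± 0.11), while CDH1, E-cadherin, was near background (3.42 ± 0.02) and the mesenchymal filament VIM was very bright (13.54 ± 0.01; SD, n = 3 each). PTPRC, the defining leukocyte gene, and CDH5, the defining endothelial one, had group means of 3.55 to 3.86, under the dimness mark. Of 3 leukocyte markers on the array 1, CD14, rose, from 5.77 to 6.59.

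Most of these factors differed between the groups, and they did so in both directions. PRRX1 fell most, by 4.20 on the log2 scale (18.3-fold), and TWIST2 (log2 change -1.37), TWIST1 (-0.81), ZEB1 (-0.41), TCF4 (-0.46) and TCF3 (-0.51) also fell on their brightest probe sets. The ZEB1 and TCF4 calls on those probe sets ended when some single arrays were left out, and 1 of the 14 TCF3 probe sets rose. HMGA2 rose by 1.08, and ZEB2 rose on 1 probe set. SNAI1 and SNAI2 read 0.12 and 0.10 and did not pass the test. Of the 48 probe sets, 5 rose, 16 fell and 27 did not pass, where 10.8% of all probe sets rose and 11.4% fell. The count of rises is therefore near the share over all probe sets. Of the 5 rises, 3 were of HMGA2, 1 of ZEB2 and 1 of TCF3. The median change over the 48 was -0.02, beside 0.0067 over all probe sets. The groups did not overlap in 27 of the 48, including all 21 that passed, and in 34.9% of all probe sets.

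**Figure D1:**
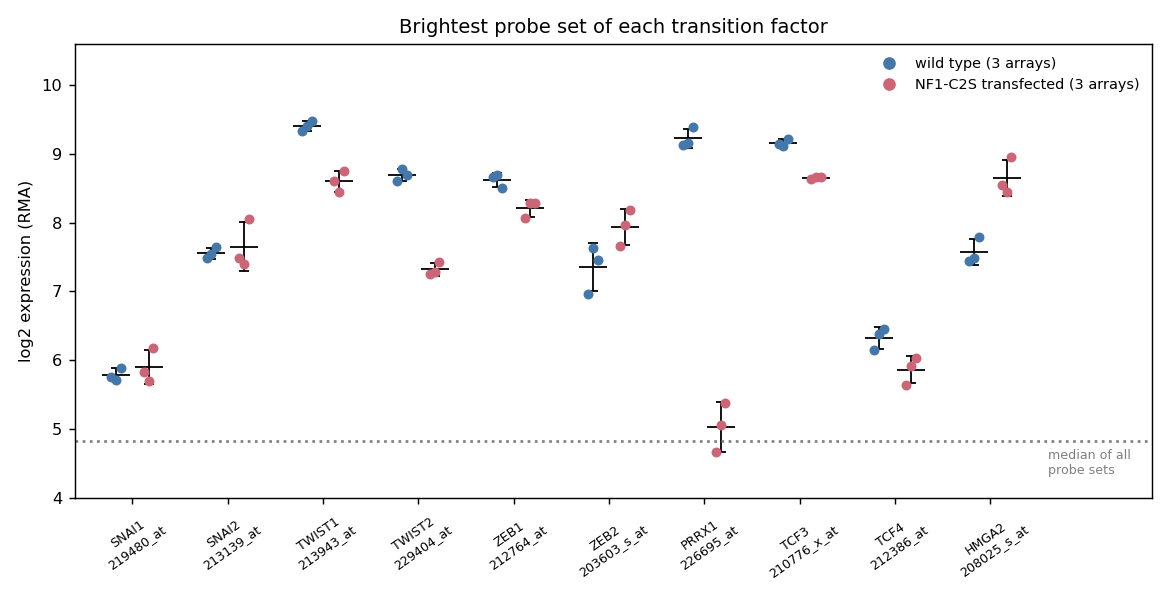
Log2 expression of the brightest probe set of each of the 10 genes, 1 point per array (blue wild type, red NF1-C2S transfected), with the mean and SD of 3 arrays in black and the median of all probe sets dotted. PRRX1 drops from a mean of 9.23 to 5.03, while SNAI1 and SNAI2 overlap between the groups.

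**Figure D2:**
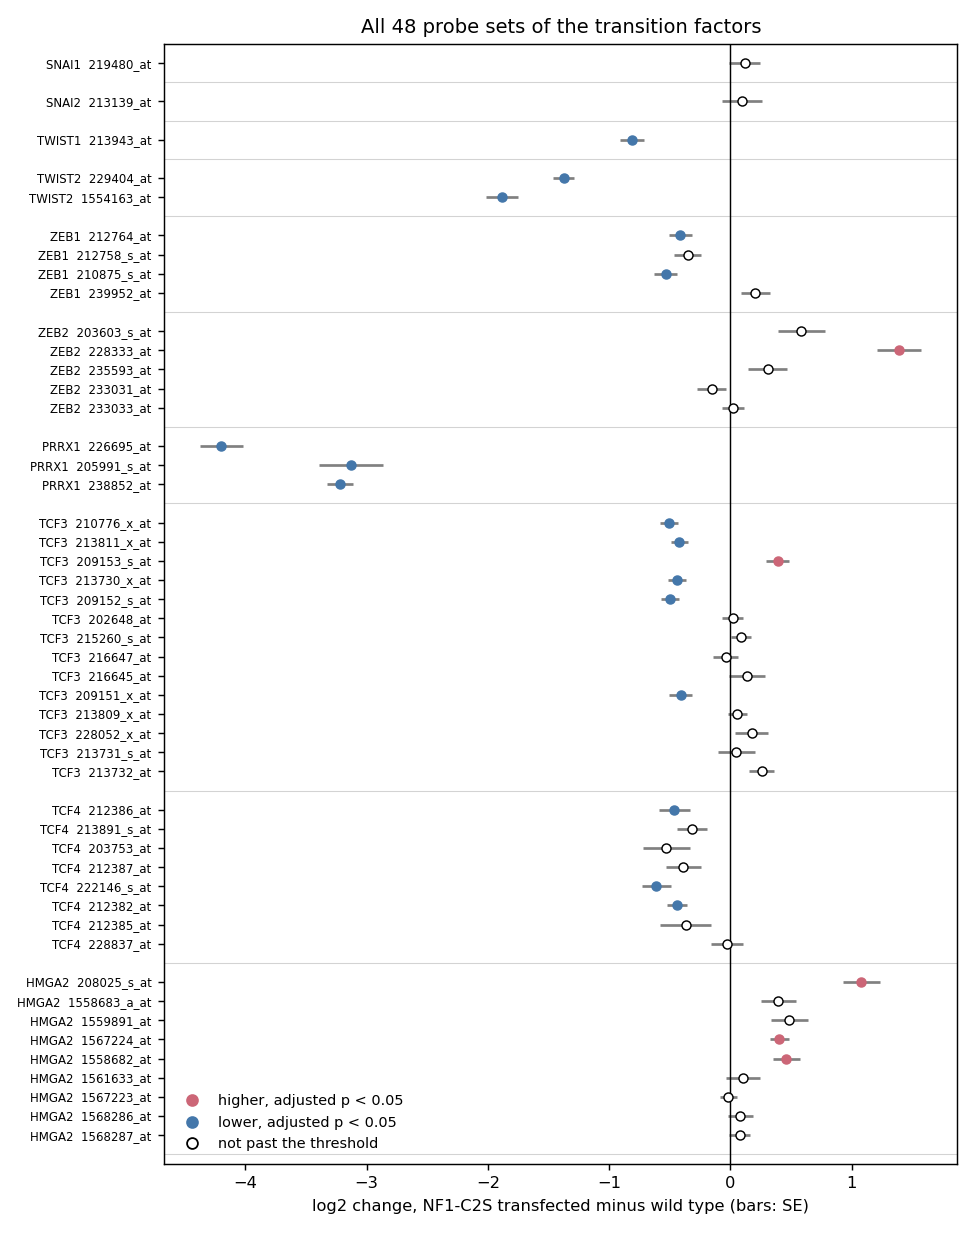
Log2 change with its SE for each of the 48 probe sets, grouped by gene and ordered within a gene from bright to dim. Filled points passed the threshold, red higher and blue lower on the arrays labelled transfected. All 3 PRRX1 and both TWIST2 probe sets lie left of 0, and those of TCF3 fall on both sides.

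Shown here are the stretches upstream of the start sites of PRRX1 and TWIST2, which fell most, and of the paralogs ZEB1 and ZEB2. ZEB1 fell on 2 of 4 probe sets and ZEB2 rose on 1 of 5. The stretches let a reader look for sites of the transfected factor's family and of the EMT repressors. They are 250 bases each, from RefSeq, build GRCh38.p14, 5′ to 3′ on the gene's strand: PRRX1 at chr1:170663881-170664130 (plus strand), TWIST2 at chr2:238847835-238848084 (plus), ZEB1 at chr10:31318167-31318416 (plus, the most upstream of its 7 listed starts) and ZEB2 at chr2:144520120-144520369 (minus). Capitals mark 2 motifs searched on both strands: the half-site of nuclear factor I, TTGGC, read as GCCAA where it lies on the opposite strand, and the E-box core that SNAI and ZEB proteins bind. That core is CACCTG, read as CAGGTG where it lies on the opposite strand, and none of the 4 stretches holds both motifs.
PRRX1: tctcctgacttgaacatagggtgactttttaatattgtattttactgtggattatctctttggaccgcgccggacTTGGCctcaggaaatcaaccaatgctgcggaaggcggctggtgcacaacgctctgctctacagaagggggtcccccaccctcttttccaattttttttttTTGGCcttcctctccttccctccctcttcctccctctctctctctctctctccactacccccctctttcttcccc
TWIST2: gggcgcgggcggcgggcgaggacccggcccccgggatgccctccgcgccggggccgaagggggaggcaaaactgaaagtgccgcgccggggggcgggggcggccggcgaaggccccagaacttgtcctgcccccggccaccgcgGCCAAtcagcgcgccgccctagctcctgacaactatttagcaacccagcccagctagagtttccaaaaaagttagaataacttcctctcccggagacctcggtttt
ZEB1: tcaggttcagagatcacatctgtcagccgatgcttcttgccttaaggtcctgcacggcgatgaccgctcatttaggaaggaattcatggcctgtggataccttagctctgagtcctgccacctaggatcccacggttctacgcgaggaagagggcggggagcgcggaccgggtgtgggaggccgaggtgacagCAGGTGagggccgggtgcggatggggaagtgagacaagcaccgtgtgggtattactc
ZEB2: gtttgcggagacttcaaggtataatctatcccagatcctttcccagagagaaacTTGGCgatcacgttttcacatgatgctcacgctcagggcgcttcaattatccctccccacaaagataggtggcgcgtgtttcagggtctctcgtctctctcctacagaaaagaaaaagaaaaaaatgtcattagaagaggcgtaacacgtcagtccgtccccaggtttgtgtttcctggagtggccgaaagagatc

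PRRX1 holds 2 half-sites in its stretch, beginning 175 and 75 bases before the start. TWIST2 holds 1, at 106 bases, ZEB2 holds 1, at 196 bases, and ZEB1 holds none there but an E-box core at 57 bases. The half-site is common: it occurs in 45.6% of the 35116 promoter windows of the table (250 bases before to 50 after a start). Of the members, 6 genes with 21 windows were matched, and 14 of those windows (66.7%) hold it, 9 of them from the 10 starts of TCF4. The full nuclear factor I palindrome, TTGGC and GCCAA 5 bases apart, is in no member window and in 0.0285% of all windows. The E-box core is in 2 of the 21 member windows, both of ZEB1, and in 20.6% of all. Such matches describe letters, not binding.

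The Snail family did not differ measurably. SNAI1, read by 219480_at, stood at 5.75, 5.71 and 5.89 in the wild type arrays and at 5.82, 5.70 and 6.18 in the transfected arrays. SNAI2, read by 213139_at, stood at 7.48, 7.54 and 7.64 against 7.49, 7.40 and 8.06. For both genes the groups overlapped, and transfected replicate 3 was the highest of the 6 arrays. The changes were 0.12 (SE 0.13, limma adjusted p = 0.649) for SNAI1 and 0.10 (SE 0.17, adjusted p = 0.787) for SNAI2. Their paralog SNAI3 was near background in both groups (3.87 ± 0.15 and 3.93 ± 0.14). Each of the 3 genes was represented by a single probe set, so agreement between probe sets could not be examined.

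TWIST1 and TWIST2, bHLH factors of mesenchymal development, both fell. TWIST1 (213943_at) read 9.34, 9.41 and 9.48 in wild type and 8.60, 8.45 and 8.75 in transfected cells. No array of one group reached the other, and the fall was by 0.81 (SE 0.10, limma adjusted p = 0.000695). TWIST2 was read by 2 probe sets. On 229404_at it stood at 8.61, 8.78 and 8.69 in wild type and at 7.25, 7.28 and 7.43 in transfected cells, a fall by 1.37 (SE 0.09, limma adjusted p = 3.74e-05) or 2.59-fold. On the dimmer 1554163_at the values were 6.49, 6.76 and 6.76 against 5.04, 4.71 and 4.62, a fall by 1.88 (SE 0.13, limma adjusted p = 5.57e-05). Both probe sets of TWIST2 therefore moved the same way with separated groups. Their difference widened from 2.02 ± 0.10 to 2.53 ± 0.30 (exact two-sided permutation p = 0.1, the smallest that 3 arrays against 3 allow).

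On its brightest probe set, TWIST2 did not stand apart from the genes beside it. Of the 10 nearest measured genes, 5 on each side in chromosome order, 7 fell and none rose, with a median change of -1.07, where 16.9% of all 19775 genes tested fell and 15.0% rose. NDUFA10, a respiratory chain subunit, read -1.43, HDAC4, a class II histone deacetylase, -1.33, ASB1 -1.25 and COPS9 -1.14, against -1.37 for TWIST2 itself. The dimmer TWIST2 probe set, 1554163_at, read -1.88, below all 10 neighbours, of which the lowest was NDUFA10. Whether the copy number of that stretch differed between the groups was not tested. Of the 10 genes nearest TWIST1, 2 fell and none rose (median -0.04).

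PRRX1 showed the largest difference of the 10 genes, on every probe set. On 226695_at the wild type arrays read 9.13, 9.16 and 9.39 and the transfected arrays 4.66, 5.05 and 5.38, a fall by 4.20 (SE 0.18, limma adjusted p = 6.02e-06). Thus the transfected arrays lay close to the dimness mark of 4.82, and the wild type arrays far above it. On 205991_s_at the values were 7.66, 7.47 and 7.79 against 5.18, 4.02 and 4.33, a fall by 3.13 (SE 0.27, adjusted p = 0.000131). On 238852_at they were 6.20, 6.55 and 6.35 against 3.04, 3.20 and 3.20, a fall by 3.22 (SE 0.11, adjusted p = 2.69e-06). All 3 separated the groups by more than 2 log2 units. Transfected replicate 1 was the lowest array on 226695_at and the highest of its group on 205991_s_at. Among all probe sets the fall on 226695_at was rank 32, and 15 genes, PRRX1 included, had a fall at least as large on their brightest probe set.

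The genes beside PRRX1 did not share its change. Of the 10 nearest, 3 fell, none rose, and the values ran from -0.53 to 0.04 with a median of -0.10. Its paralog PRRX2 read 6.52 ± 0.25 in wild type and 6.43 ± 0.06 in transfected cells (adjusted p = 0.677 over genes). Over the 6 arrays, the genes whose values ran closest to 226695_at, each centred on its own mean, were the death receptor FAS (Euclidean distance 0.332 log2 units), the surface glycoprotein CD24 (0.453) and ZNF506 (0.486). Closest to 238852_at were the transporter SLC10A4 (0.207), the microfibril protein FBN1 (0.264) and the glycosyltransferase GCNT2 (0.282). These distances describe 6 arrays in 2 groups and are set mainly by the size of the difference between the groups.

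**Figure D3:**
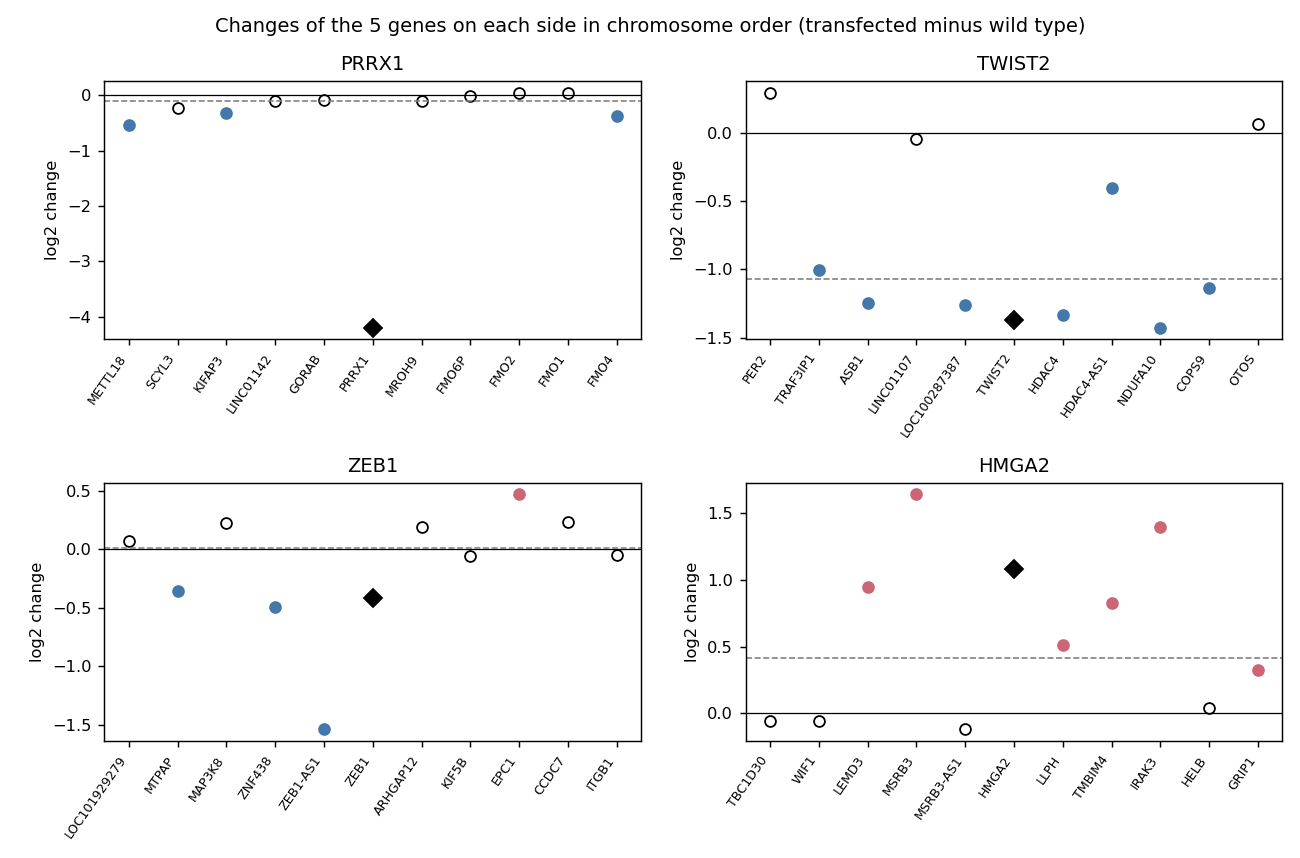
Log2 change (transfected minus wild type) of PRRX1, TWIST2, ZEB1 and HMGA2 (black diamonds) and of the 5 measured genes on each side in chromosome order, red where higher and blue where lower past the threshold, with the median of the flanking genes dashed and a separate vertical scale in each panel. On their brightest probe sets, TWIST2 and HMGA2 lie within the range of their neighbours and PRRX1 lies far below its own.

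The ZEB repressors passed the test in opposite directions, each on only part of its probe sets. ZEB1 on its brightest probe set, 212764_at, read 8.66, 8.70 and 8.51 in wild type and 8.07, 8.28 and 8.28 in transfected cells, a change of -0.41 (SE 0.10, limma adjusted p = 0.0161). The call ended without wild type replicate 1 or 2 (adjusted p = 0.0596 and 0.064). On 210875_s_at it fell by 0.53 (SE 0.10, adjusted p = 0.00526), from 5.86, 5.85 and 5.73 to 5.14, 5.43 and 5.27. Another, 212758_s_at, read -0.35 with adjusted p = 0.0581, and passed with the replicate number as a block (adjusted p = 0.0332). The dimmest, 239952_at, stood under the dimness mark at 3.68 and 3.89 and read 0.21. ZEB1-AS1, a long noncoding RNA gene next to ZEB1, fell by 1.54, and of the other 9 neighbours 2 fell and 1 rose.

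ZEB2 rose clearly on 1 of 5 probe sets. On 228333_at the wild type arrays read 4.74, 4.80 and 5.03 and the transfected arrays 5.85, 6.31 and 6.59, so the groups were apart and the rise was 1.39 (SE 0.18, limma adjusted p = 0.00103) or 2.63-fold. The brightest, 203603_s_at, read 6.96, 7.63 and 7.46 in wild type and 7.66, 7.96 and 8.18 in transfected cells. Its change of 0.58 (SE 0.19) missed the threshold (adjusted p = 0.071) although the groups did not overlap, and it passed with the replicate block (adjusted p = 0.00782). The remaining 3, with group means of 3.29 to 4.27, read 0.31, -0.15 and 0.02. Of these, 235593_at passed with the block (0.31, adjusted p = 0.0442). As the mean of its 5 probe sets ZEB2 was higher by 0.43 (adjusted p = 0.0149 over genes).

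The miR-200 family and miR-205 are known to repress ZEB1 and ZEB2, and let-7 to repress HMGA2, through their seeds (bases 2 to 8, in capitals, 5′ to 3′, RefSeq, build GRCh38.p14). Mature miRNAs were not measured on these arrays, and only host transcripts can be read. The miRNAs of 3 hosts, looked up after the values of ZEB and HMGA2 were seen, are shown with those seeds.
miR-200c-3p: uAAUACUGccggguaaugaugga
miR-141-3p: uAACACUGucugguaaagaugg
miR-205-5p: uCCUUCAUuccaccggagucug
let-7b-5p: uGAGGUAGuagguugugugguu

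The seeds of miR-200c and miR-141 come from the same host, MIR200CHG, and differ from each other. MIR200CHG read 4.11 in wild type and 4.18 in transfected cells (limma adjusted p = 0.833) and MIR205HG 3.34 and 3.54 (adjusted p = 0.261), all under the dimness mark. MIRLET7BHG, the host of let-7b, read 5.64 and 5.37 on its brighter probe set (adjusted p = 0.418) and -0.03 as the change on the other. None of the 3 hosts passed the test.

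The E proteins are the bHLH partners of TWIST factors, and their probe sets differed in how far they went together. All 8 probe sets of TCF4 had negative changes. On 212386_at the wild type arrays read 6.14, 6.38 and 6.45 and the transfected arrays 5.64, 5.91 and 6.03, a change of -0.46 (SE 0.13, limma adjusted p = 0.0348). This call ended without wild type replicate 2 or 3 or transfected replicate 1 or 2 (adjusted p from 0.0636 to 0.126). TCF4 fell also on 222146_s_at, by 0.61 (adjusted p = 0.00765), and on 212382_at, by 0.44 (adjusted p = 0.00746). The other 5 read from -0.53 to -0.03. Of these, 203753_at, 212387_at and 212385_at passed with the replicate block (adjusted p = 0.0122, 0.0152 and 0.0269). Transfected replicate 1 was the lowest array on 6 of the 8.

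TCF3 gave opposite calls. Of its 14 probe sets 5 fell, 1 rose and 8 did not pass. The brightest, 210776_x_at, read 9.14, 9.12 and 9.22 in wild type and 8.63, 8.66 and 8.67 in transfected cells, a fall by 0.51 (SE 0.07, limma adjusted p = 0.00171). The others that fell, 213811_x_at, 213730_x_at, 209152_s_at and 209151_x_at, changed by -0.42, -0.44, -0.50 and -0.41, so the 5 falls lay within 0.1 log2 units of each other. The call of 209151_x_at ended without wild type replicate 1 or 2 or transfected replicate 2 (adjusted p from 0.0555 to 0.0617). In contrast 209153_s_at rose, from 7.99, 8.06 and 8.21 to 8.54, 8.53 and 8.36 (change 0.39, SE 0.09, adjusted p = 0.0193, and 0.0677 to 0.0733 without wild type replicate 1 or 2 or transfected replicate 2). Within each array, 210776_x_at exceeded 209153_s_at by 1.07 ± 0.07 in wild type and by 0.18 ± 0.12 in transfected cells. This pair was picked for its opposite calls, so its exact permutation p of 0.1 adds nothing to those calls. Of the 91 TCF3 pairs, 50 gave that smallest possible p. Against 209152_s_at the excess of 210776_x_at was 2.16 ± 0.05 and 2.15 ± 0.04. Every TCF3 probe set that passed ends in _x_at or _s_at, suffixes of probes that may match several transcripts, and the 4 that do not read from -0.04 to 0.26. The mean of the 14 read -0.08 (adjusted p = 0.442 over genes), so no single direction describes TCF3. Older texts use the symbols TCF3 and TCF4 for the Wnt effectors TCF7L1 and TCF7L2, which are other genes. TCF7L2 rose, by 0.57 on its brightest probe set, and on all 7 of its probe sets.

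**Figure D4:**
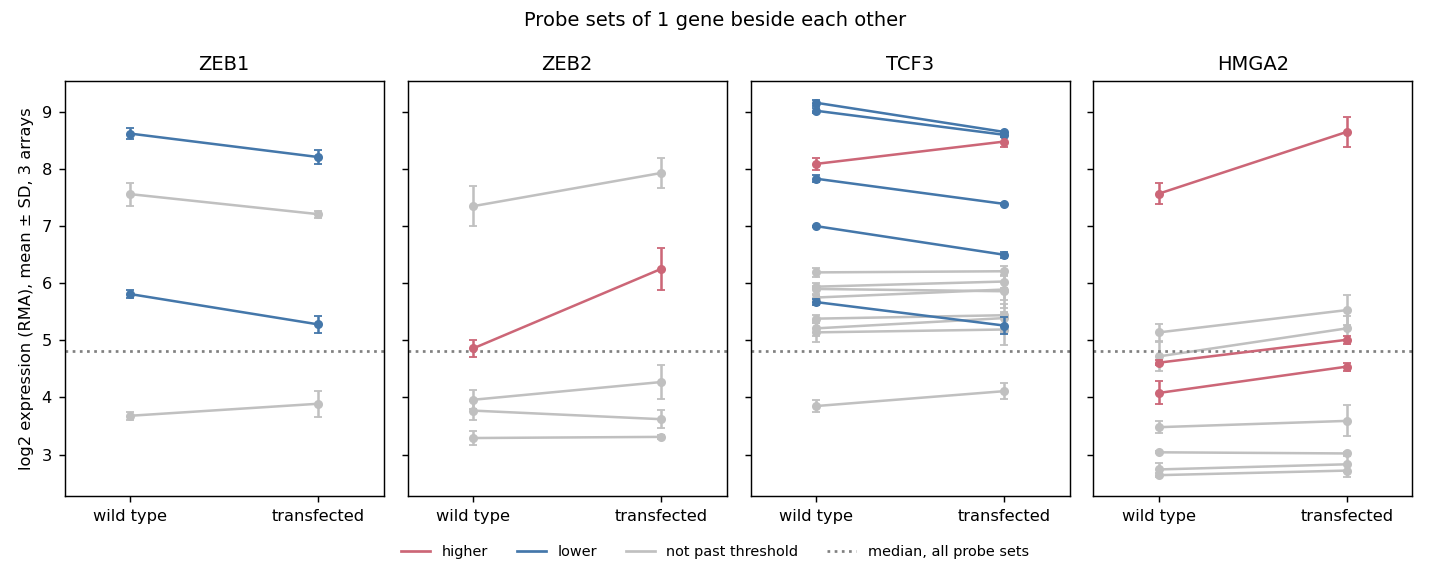
Mean log2 expression with SD (3 arrays each) of every probe set of ZEB1, ZEB2, TCF3 and HMGA2 in wild type and transfected cells, joined by a line that is red where higher, blue where lower and grey where the threshold was not passed. TCF3 has 5 blue lines and 1 red, and the flat lines of ZEB2 and HMGA2 lie under the dotted median of all probe sets.

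HMGA2 rose. Its brightest probe set, 208025_s_at, read 7.44, 7.48 and 7.79 in wild type and 8.55, 8.45 and 8.95 in transfected cells, a rise of 1.08 (SE 0.15, limma adjusted p = 0.00152) or 2.11-fold with separated groups. On 1567224_at it rose from 4.63, 4.56 and 4.64 to 4.98, 4.97 and 5.09 (change 0.40, adjusted p = 0.00661), and on 1558682_at by 0.46 (adjusted p = 0.0199), a call that ended without any 1 of 4 arrays (adjusted p from 0.0629 to 0.0714). Also 1559891_at read 0.49 (adjusted p = 0.057, and 0.0106 with the replicate block) and 1558683_a_at read 0.40 (adjusted p = 0.0927). The remaining 4, with group means of 2.64 to 3.59, read from -0.02 to 0.11. Hence the 5 brightest of 9 had positive changes without overlap of the groups, and the 4 dimmest showed no separation.

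As with TWIST2, the genes beside HMGA2 moved with it. Of the 10 nearest, 6 rose and none fell, with a median change of 0.42 against 1.08 for HMGA2. The methionine sulfoxide reductase MSRB3 read 1.64, the signalling kinase IRAK3 1.39, the nuclear envelope protein LEMD3 0.95 and TMBIM4 0.83. Copy number was not tested. Beside SNAI2, which did not pass, all 10 neighbours read below 0 (-0.41 to -0.02, median -0.21) and 4 of them fell. The counts were mixed or few beside the remaining members: of 10 neighbours each, SNAI1 had 2 higher and 2 lower, ZEB2 2 higher and 1 lower (the kynureninase gene KYNU, by -4.91), TCF3 1 higher, and TCF4 1 of each.

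The partners and regulators of these factors, a list of 25 genes with 1 probe set each, went both ways: 8 rose, 4 fell and 13 did not pass, with a median change of 0.07 (all genes: 15.0% higher, 16.9% lower and a median of 0). In these lists p was adjusted over the 19775 genes. TCF12 (HEB), a further E protein, rose from 7.81 ± 0.05 to 9.41 ± 0.08 (3.05-fold, limma adjusted p = 9.79e-06). The co-repressor HDAC1 rose from 10.38 ± 0.10 to 11.72 ± 0.08 and PRKD1, a kinase that phosphorylates SNAI1, from 6.08 ± 0.24 to 7.33 ± 0.20. ID1, an inhibitor of E protein pairs, fell from 7.76 ± 0.15 to 7.13 ± 0.18 (adjusted p = 0.00473). The further ID genes did not pass: ID2 read 6.71, 7.04 and 6.43 against 4.94, 5.44 and 6.45 (adjusted p = 0.0505), with transfected replicate 3 inside the wild type range, and ID3 and ID4 read 0.08 and -0.07. The dimmer ID2 probe set 201566_x_at fell, by 0.65 (adjusted p = 0.0308 over probe sets). FBXL14, a ubiquitin ligase subunit that marks SNAI1 for degradation, fell by 0.41 and the SNAI co-repressor AJUBA by 0.37.

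Genes around let-7 and HMGA2 included 4 of 10 measured that rose and 1 that fell (median change 0.05), where 15.0% of all genes rose and 16.9% fell. ARID3B rose by 0.91, the mRNA-binding protein IGF2BP2 by 0.85 and HMGA1, the paralog of HMGA2, by 0.50. The second probe set did not pass for IGF2BP2 (0.16, limma adjusted p = 0.757 over probe sets) or for HMGA1 (0.23, adjusted p = 0.0574). MYC fell by 0.59. LIN28B, which blocks let-7 maturation, was near background in both groups (3.04 ± 0.05 and 3.07 ± 0.22).

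Epithelial genes known to be repressed by SNAI, ZEB or TWIST factors showed no common direction. Among the 31 on the array, 5 rose, 4 fell and 22 were not past the threshold, with a median change of -0.02. These counts are near the shares over all genes (15.0% higher, 16.9% lower). With the replicate block they were 4 and 6. ELF3, an epithelial ETS factor, rose from 5.27 ± 0.26 to 6.82 ± 0.19 (limma adjusted p = 0.000202), the tight junction protein MARVELD2 from 4.83 ± 0.19 to 6.34 ± 0.20 and the claudin CLDN1 by 0.41. Desmoplakin, DSP, fell from 7.93 ± 0.20 to 6.57 ± 0.29 (adjusted p = 0.000551), KRT18 by 0.93 and the sorting adaptor AP1M2 by 0.39. CDH1 stayed near background, at 3.42 ± 0.02 and 3.44 ± 0.07 (adjusted p = 0.894), and its second probe set read 3.23 and 3.36. Of the 8 luminal epithelial markers, which share KRT8, KRT18, KRT19, EPCAM and CDH1 with this list, 3 fell (KRT7, KRT18 and the luminal factor GATA3) and none rose, with a median change of -0.39. Their summed log2 level ran from 52.5 to 53.22 in wild type and from 48.55 to 50.36 in transfected arrays. The part of that movement in the changes of the list was not tested. Of the 32 genes, 18 had a promoter in the table, with 24 windows. The E-box core CACCTG is in 15 of the 24 (62.5%), beside 20.6% of all promoter windows. The list was made of genes known to be repressed by factors that bind E-boxes, so this share says nothing about these data.

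Mesenchymal genes passed mainly in the downward direction: 11 of 29 fell, 1 rose and 17 did not pass (median change -0.15), where 16.9% of all genes fell and 15.0% rose. The gelatinase MMP2 fell from 8.18 ± 0.50 to 4.80 ± 0.11 (10.4-fold, limma adjusted p = 4.05e-05), FBN1 from 9.51 ± 0.10 to 6.25 ± 0.18 and fibronectin, FN1, from 10.21 ± 0.18 to 7.44 ± 0.13. Vimentin, VIM, fell by 0.53 and stayed among bright signals at 13.01 ± 0.05. CDH2, N-cadherin, did not pass (9.19 ± 0.08 and 9.37 ± 0.12, adjusted p = 0.18). The mesenchymal cadherin CDH11 was the gene that rose, by 1.50 on its brightest probe set and by 4.15 on 207173_x_at. With _x_at and _s_at probe sets left out, 6 genes of the list fell. Some genes, such as FN1, were then read on another probe set, and VIM left the count. The share over all genes was not computed for this setting, so the count stands alone. Of 5 fibroblast markers 1, FAP, fell, and their summed log2 level ran from 22.7 to 23.48 in wild type and from 21.66 to 22.27 in transfected arrays. PDGFRA, PDGFRB and LUM were under the dimness mark in both groups, and the part of such cells in these changes was not tested.

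Upstream signals known to induce the factors were split, with 6 of 21 higher, 6 lower and 9 not past the test (median change 0.05; all genes 15.0% higher and 16.9% lower). The cytokine IL6 rose from 10.37 ± 0.08 to 12.37 ± 0.14 (4.0-fold, limma adjusted p = 1.01e-05), the TGF-beta effector SMAD3 from 7.55 ± 0.08 to 9.45 ± 0.10 and its partner SMAD4 by 1.20. The Notch ligand JAG1 fell from 8.12 ± 0.12 to 6.64 ± 0.29, the ligand TGFB2 from 6.91 ± 0.22 to 5.89 ± 0.40 and STAT3, the transcription factor downstream of IL6, by 0.66. All 4 SMAD3 probe sets rose, by 0.93 to 1.90, while 1 of the 5 SMAD4 probe sets rose and the others read from 0.06 to 0.37.

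Other transcription factors linked to EMT fell more often than they rose: 8 of 18 fell, 3 rose and 7 did not pass, with a median change of -0.33 beside 0 over all genes. Over all genes 16.9% fell and 15.0% rose, so the count of rises is near that share. The forkhead factor FOXF1 fell from 7.69 ± 0.16 to 4.17 ± 0.35, the zinc finger factor GATA6 from 9.12 ± 0.10 to 6.52 ± 0.17 and the homeobox factor MSX2 from 6.78 ± 0.17 to 4.90 ± 0.24. The rises were smaller: TCF7L2 by 0.57, ETS1 by 0.57 and RUNX2 by 0.54. All 7 probe sets of TCF7L2 and all 3 of ETS1 rose, but only 1 of the 6 of RUNX2 did. With _x_at and _s_at probe sets left out, 4 of the list fell. Here too some genes were then read on another probe set, and no share over all genes was computed.

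**Figure D5:**
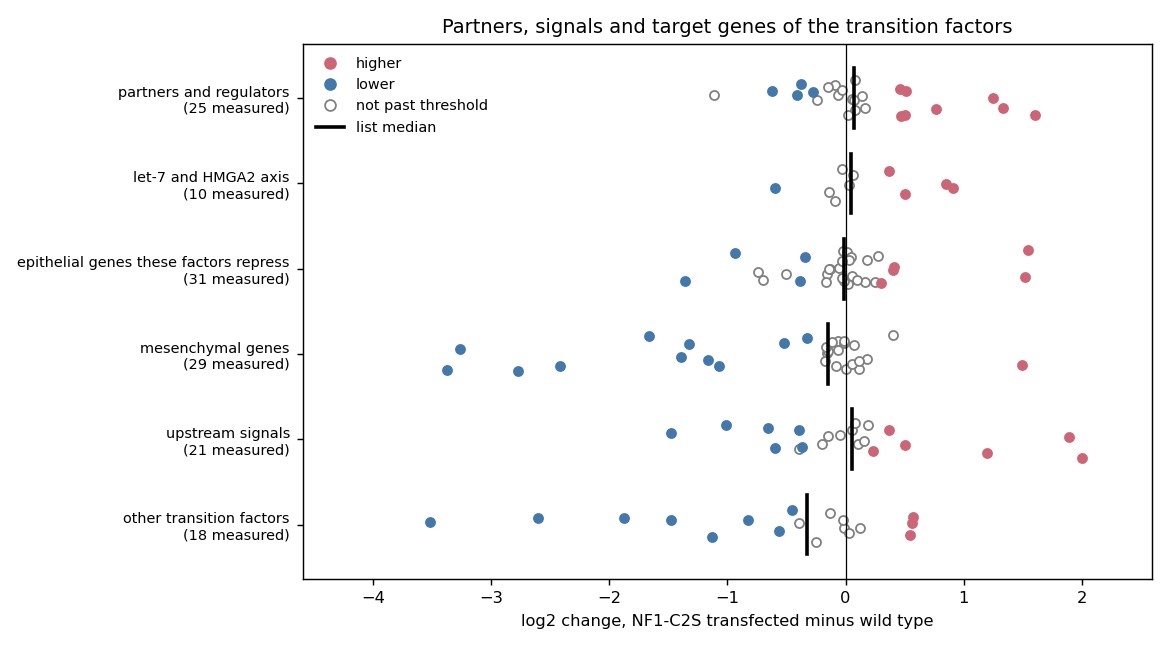
Log2 change (transfected minus wild type) of each measured gene in 6 lists around the transition factors, 1 point per gene on its brightest probe set, red higher, blue lower and open where the threshold was not passed, with the list median as a black bar and points spread vertically only to be seen. Falls outnumber rises in the mesenchymal list (11 against 1) and in the other transition factors (8 against 3).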

How the data were processed

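RNA of 3 wild type and 3 NF1-C2S transfected samples of MDA-MB-436 was measured on Affymetrix arrays. The deposited log2 values are RMA summaries, per the submitters' processing notes, and no version of RMA is stated in the sources used here. Values ran from 2.35 to 14.62, with array medians of 4.80 to 4.86. Arrays have no read depth, and their number limits the precision. After 62 control probe sets were left out, limma 3.58.1 in R 4.3.3 (two-sided, with empirical Bayes moderation) was fitted to all 54613 probe sets and, for the gene lists, to 19775 genes with the brightest single-gene probe set of each. Benjamini-Hochberg adjustment ran over each table, with 0.05 as the threshold, and the script was tested on simulated data. Genes were named from the platform annotation, with 41037 probe sets updated by gene identifier to a RefSeq table of GRCh38.p14, used otherwise only for the order of neighbouring genes and for sequences. Neighbours and motif counts were added after values had been seen.

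The members and lists were chosen with earlier results of these data known, and no list was tested as a set. The text covers every member probe set, by name or within a count, and names up to 3 rises and 3 falls per list, the largest of those that passed, a few list genes whatever their values (CDH1, VIM, CDH2, the ID genes, TCF12, PRRX2, LIN28B, SNAI3), and the 3 genes nearest to each of the 2 member probe sets with the largest change. The neighbours, miRNA hosts and further probe sets named were chosen after their values were seen. Arrays that share a replicate number in the labels deviated together from their group means (correlations 0.398, 0.238 and 0.140 for replicates 1, 2 and 3). Wild type replicate 2 with transfected replicate 3 gave 0.142, so a pairing by number is not clear for replicate 3. The replicate number was therefore used as a block only in an alternative fit. The model used has no block, and values with the replicate block are given where the call of a member changed, and the list counts it changed are in the closing section. The protein sequences planned for comparison were not used here.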

Additional observations from a re-analysis of the deposited data

How the results depend on the processing

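Of the 21 probe sets that passed, 16 did so under every alternative they entered (quantile normalization, median centring, cyclic loess, array weights, trend with robust moderation, the replicate block, dim probe sets left out, probe sets ending in _x_at or _s_at left out, and each array left out), and none of the 21 changed sign. Among the 27 that did not pass, 17 values under an alternative had the other sign. The replicate block gave 8 member probe sets higher in place of 5 and 20 lower in place of 16. Apart from those named in the report it changed no call of a member. In the lists it gave 4 epithelial rises and 6 epithelial falls in place of 5 and 4, and 5 falls among partners and regulators in place of 4. Leaving out 1 array gave 3 to 8 higher (3 without transfected replicate 2, 8 without transfected replicate 1) beside 5. With _x_at and _s_at probe sets left out, 3 were higher and 8 lower in place of 5 and 16, since 17 of the 48 then leave the count. The shares over all probe sets and genes given above were computed with none of these alternatives, so these counts stand without such shares.

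In the lists, the same exclusion gave 2 falls in place of 4 among partners and regulators, 0 falls in place of 1 in the let-7 list, 2 falls in place of 4 among epithelial genes, 6 in place of 11 among mesenchymal genes and 4 in place of 8 among other transition factors. The mean of the probe sets gave 3 epithelial rises in place of 5. Leaving out 1 array gave 3 to 6 epithelial rises (3 without transfected replicate 2), 2 to 4 epithelial falls (2 without wild type replicate 1) and 1 to 2 mesenchymal rises. Array weights, trend with robust moderation, the replicate block, the dim filter and the mean of the probe sets each gave 2 mesenchymal rises in place of 1, as did leaving out wild type replicate 3. Under the exclusion, a list gene was read on the brightest of its remaining probe sets, or left out if it had none. The cause of these differences was not tested. RMA compresses differences where signals are dim, so changes of dim probe sets may be understated, which was not tested here. Of the 12 member probe sets with both means under the median, 1 passed.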
